A study of Mus musculus with 7 samples.

Results

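The genes described here set the brake and the engine of the G1 phase of the cell cycle: the CDK inhibitors Cdkn1a, Cdkn1b, Cdkn1c, Cdkn2a, Cdkn2b and Cdkn2c, the D-type cyclins Ccnd1 and Ccnd2, and their kinases Cdk4 and Cdk6. They were taken by symbol from the probe sets that name a single gene, and the brightest probe set stood for each gene. All 10 genes were found, with 22 probe sets, among 12393 genes named in this way. Of the 10, 9 lay above the 30th percentile on all 7 arrays, passed the filter on dim genes and were tested among 9243 genes, and Cdk6 did not pass it.

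RNA from sorted mouse glioma cells was measured on 7 Affymetrix arrays, 3 from Ptprd-/-p16-/- tumours, 2 from Ptprd+/-p16-/- tumours and 2 from Ptprd+/+p16-/- tumours. Ptprd encodes a receptor-type protein tyrosine phosphatase, and the design asks what changes in glioma cells when 1 or both of its alleles are lost. All mice, the Ptprd+/+ ones included, lacked p16, the Ink4 inhibitor made from the Cdkn2a locus, carried tv-A under the Nestin promoter and were a mix of C57/BL6 and FVB/N. Into their brains RCAS PDGFB GFP had been injected on postnatal days 1 to 3, an avian retroviral vector that infects only cells with tv-A and makes them secrete platelet-derived growth factor B and glow green. When symptoms appeared, or 12 weeks after injection, living green cells were sorted from the papain-digested tumours. Samples are labelled as biological replicates, with no word on whether a sample is 1 mouse or a pool, so p-values measure the spread between these samples.

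As background, D cyclins are made in response to growth factors and bind Cdk4 or Cdk6, and the complexes phosphorylate the retinoblastoma protein, which releases E2F factors to switch on genes of DNA replication. The Ink4 inhibitors, encoded by the Cdkn2 genes, bind Cdk4 and Cdk6 alone and keep the cyclin out. The Cip/Kip inhibitors, encoded by the Cdkn1 genes, bind cyclin-CDK complexes and block those of Cdk2, while they can help D cyclins and Cdk4 to assemble. In gliomas driven by platelet-derived growth factor this circuit is often deregulated, and loss of p16 removes one of its Ink4 brakes.

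Median levels of the arrays lay between 6.62 and 6.71 on the log2 scale of the deposited values. The Ptprd+/- arrays stood apart from the other 5 over all genes: the first principal component placed them at 39.4 and 27.1 and the others between -19.6 and -5.64. Ptprd itself read 9.61, 8.95 and 9.93 (log2) in Ptprd-/- cells, 9.42 and 9.57 in Ptprd+/- cells and 10.86 and 10.89 in Ptprd+/+ cells. It was thus lower in both deficient groups and did not separate Ptprd-/- from Ptprd+/- cells, a log2 difference of 0.00 with a 95% interval from -0.61 to 0.61. Against Ptprd+/+ its log2 difference in limma was -1.37 in both Ptprd-/- (unadjusted p = 0.00106) and Ptprd+/- cells (unadjusted p = 0.00178). Its adjusted p was 0.882 in Ptprd-/- and 0.0311 in Ptprd+/- cells, and 0.882 was the smallest adjusted p of any gene in the former comparison. The sources used here do not say whether its probe sets read sequence that the targeting removed. Ptprd-/- replicate 1 and Ptprd+/- replicate 1, called the mixed arrays here, had high levels of Xist together with high levels of Y-linked genes, while each other array had one or the other. Markers of the labelled cells were high in every array, with a summed level of 8 glioma and oligodendrocyte progenitor genes, antilogged, of 45076 to 47496 in Ptprd-/-, 32432 to 39287 in Ptprd+/- and 50572 to 50971 in Ptprd+/+ cells. The 17 microglia and macrophage markers on the array summed to 1016 to 1604 in Ptprd-/-, 2670 to 3424 in Ptprd+/- and 885 to 1234 in Ptprd+/+ cells, with Itgam and Aif1 below the filter.

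In Ptprd+/- against Ptprd+/+ cells 3 of the 9 tested genes rose, Cdkn1a, Cdkn1c and Cdk4, and 0 fell (limma, adjusted p under 0.05). Among all genes tested 4.2% rose and 5.95% fell, 10.1% together. Falls were called for 4 genes in Ptprd-/- against Ptprd+/- cells, Cdkn1a, Cdkn1c, Cdkn2c and Cdk4, and a rise for 1, Ccnd2, beside 3.96% of all genes that fell and 5% that rose, 8.96% together. The 2 comparisons share the Ptprd+/- arrays, so the second is not an independent repeat of the first. In Ptprd-/- against Ptprd+/+ cells limma called 0 of the 9 genes and 0% of all genes, and at an unadjusted p under 0.05 it picked 0 of the 9 genes and 475 of all genes. A difference among the 3 genotypes passed the F test for 3 genes, Cdkn1a, Cdkn1c and Cdk4, beside 5.65% of all genes. The median log2 difference of the 9 genes was 0.57 in Ptprd+/- against Ptprd+/+ cells, -0.11 in Ptprd-/- against Ptprd+/- cells and 0.00 in Ptprd-/- against Ptprd+/+ cells, and over all genes it was -0.04, 0.04 and 0.00.

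The ranges of Ptprd+/- and Ptprd+/+ arrays did not overlap for 8 of the 9 genes, beside 61.3% of all genes, so with 2 arrays a group this separation is common. Ptprd-/- and Ptprd+/- arrays did not overlap for 5 of the 9 genes, beside 43.7% of all genes, and Ptprd-/- and Ptprd+/+ arrays for 1, Cdkn2b, beside 21.7%. The number of called genes rested on single arrays. In Ptprd+/- against Ptprd+/+ cells it was 0 without Ptprd+/- replicate 1, Ptprd+/+ replicate 1 or Ptprd+/+ replicate 2. The number in Ptprd-/- against Ptprd+/- cells was 1 without Ptprd-/- replicate 1 or Ptprd-/- replicate 3, and 3 without Ptprd-/- replicate 2. Leaving out either Ptprd+/+ array changed no log2 difference in this comparison. It repeated the fit of these 2 groups alone, in which 1 gene was called. Leaving out a Ptprd+/- array leaves 1 array in that group, which is then assumed to vary like the others.

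**Figure D1:**
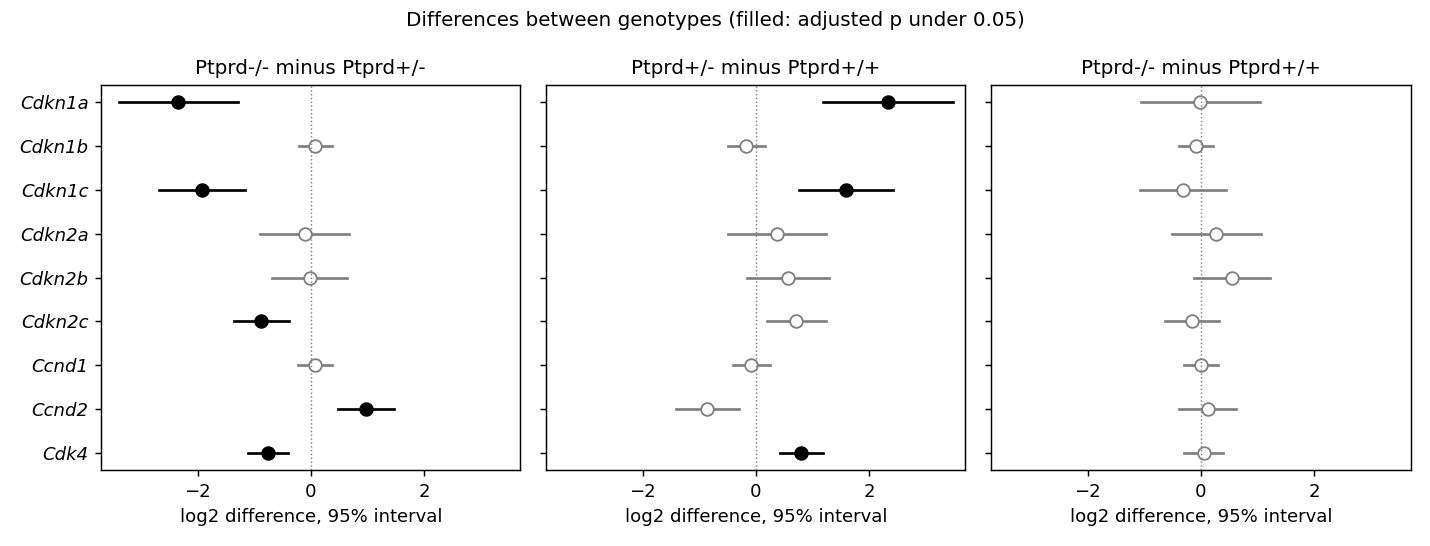
Log2 difference (x axis) of the 9 tested genes (y axis) in Ptprd-/- minus Ptprd+/- cells, Ptprd+/- minus Ptprd+/+ cells and Ptprd-/- minus Ptprd+/+ cells, with 95% intervals from limma and filled points where the adjusted p was under 0.05. Cdkn1a and Cdkn1c lie farthest from 0 in both comparisons that involve Ptprd+/- cells, Ccnd2 lies on the opposite side, and every interval of Ptprd-/- minus Ptprd+/+ spans 0.

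Cdkn1a encodes p21, the Cip/Kip inhibitor best known as a target of p53 and also raised by mitogens. Its level (log2) was 7.71, 9.07 and 7.58 in the Ptprd-/- arrays, 10.35 and 10.57 in the Ptprd+/- arrays and 8.46 and 7.80 in the Ptprd+/+ arrays. Both Ptprd+/- arrays lay above all 5 others, while Ptprd-/- and Ptprd+/+ arrays overlapped and Ptprd-/- replicate 2 was the highest of them. Cdkn1a was 5.03-fold higher in Ptprd+/- than in Ptprd+/+ cells (log2 difference 2.33 ± 0.49, SE, adjusted p = 0.0321). In Ptprd-/- cells it was 5.06-fold lower than in Ptprd+/- cells (log2 difference -2.34 ± 0.44, SE, adjusted p = 0.0282). Between Ptprd-/- and Ptprd+/+ cells the log2 difference was -0.01, with a 95% interval from -1.06 to 1.04. The second probe set of the gene gave 2.53 in Ptprd+/- minus Ptprd+/+ and -2.42 in Ptprd-/- minus Ptprd+/- cells, both past the threshold in the fit of every probe set (adjusted p = 0.0308 and 0.0317). An exact permutation test of the F statistic over all 210 assignments of the arrays, which can give no p below 0.00952, gave p = 0.105 for the brightest probe set.

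The microglia and macrophage markers moved with Cdkn1a. Of the 12 that passed the filter on dim genes without help from the Ptprd+/- arrays, 11 rose in Ptprd+/- against Ptprd+/+ cells, beside 4.2% of all genes. In Ptprd-/- against Ptprd+/- cells 8 of them fell, beside 3.96% of all genes. Another 3, Ptprc, Cd68 and Cd14, passed the filter only through the Ptprd+/- arrays, where they are high, and are left out of these counts. The part of these markers in the rise of Cdkn1a was not tested, and in the RNA of sorted pools a change in the number of cells of a type and a change in RNA per cell cannot be told apart. The call of Cdkn1a in Ptprd+/- against Ptprd+/+ cells ended without Ptprd+/- replicate 1 (adjusted p = 0.140) or 2 (0.0897), without Ptprd+/+ replicate 1 (0.0850) or 2 (0.181), without moderation of the spread (0.142), with 3' minus 5' signal as a covariate (0.0536) and without both mixed arrays (0.197). The call in Ptprd-/- against Ptprd+/- cells ended without Ptprd-/- replicate 1 (0.0754) or 3 (0.0830), without Ptprd+/- replicate 1 (0.157) or 2 (0.0826), without either Ptprd+/+ array or in a fit of these groups alone (0.05005 each), without moderation (0.138) and without both mixed arrays (0.282).

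Promoters are shown, here and below, for Cdkn1a, Cdkn2c and Cdk4, the called genes for which windows were at hand. RefSeq's table for GRCm38.p6 holds windows for 7 of the 10 genes, 10 windows in all, and none for Cdkn1c, Ccnd1 or Ccnd2. Cdkn1a has 2 annotated starts on the plus strand of chromosome 17, and the 250 bases before each are given below 5' to 3', chr17:29090729-29090978 for start 1 and chr17:29093519-29093768 for start 2. Capitals mark full matches to the consensus decamer of the p53 response element in start 1 and the GC box GGGCGG, a site of Sp1-type factors, in start 2.
Cdkn1a start 1: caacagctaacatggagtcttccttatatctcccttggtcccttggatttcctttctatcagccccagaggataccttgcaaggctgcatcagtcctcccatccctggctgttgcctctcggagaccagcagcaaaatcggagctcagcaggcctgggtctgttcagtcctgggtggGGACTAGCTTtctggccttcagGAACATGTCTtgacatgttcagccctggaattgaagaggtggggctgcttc
Cdkn1a start 2: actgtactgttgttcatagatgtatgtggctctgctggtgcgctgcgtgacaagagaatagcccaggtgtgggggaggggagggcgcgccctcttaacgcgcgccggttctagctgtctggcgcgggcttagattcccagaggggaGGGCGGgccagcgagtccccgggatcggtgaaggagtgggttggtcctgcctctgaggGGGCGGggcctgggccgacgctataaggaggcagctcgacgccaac
The decamer of the p53 consensus, of which a full site holds a pair, began 73 and 51 bases before start 1 and was found in none of the other 9 windows of the genes. These matches do not adjoin, and whether they form a full site was not tested. The stretch directly after the second match departs from the decamer only at its first base and is not marked. At least 1 match stood in 7.13% of the 32851 promoter windows of the same length, and 2 or more in 0.259%. Before start 2 the GC box began 104 and 46 bases upstream. A GC box on either strand stood in 32.7% of all windows and 2 or more in 16.7%. The decamer consensus and the E box searched below read alike on both strands. A match is a description of these letters, and none of the motifs overlapped another in the windows printed here.

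Cdkn1c encodes p57, a Cip/Kip inhibitor that in mice is expressed from the maternal allele and is known for cell cycle exit during development. The arrays read 7.57, 6.54 and 7.65 (log2) in Ptprd-/- cells, 9.12 and 9.23 in Ptprd+/- cells and 7.72 and 7.43 in Ptprd+/+ cells. Again both Ptprd+/- arrays were above all others. Ptprd-/- replicate 2, the highest of the other arrays for Cdkn1a, was the lowest array for Cdkn1c. Cdkn1c was 3.02-fold higher in Ptprd+/- than in Ptprd+/+ cells (log2 difference 1.59 ± 0.35, SE, adjusted p = 0.0377) and 3.77-fold lower in Ptprd-/- than in Ptprd+/- cells (-1.92 ± 0.32, adjusted p = 0.0208). The log2 difference between Ptprd-/- and Ptprd+/+ cells was -0.32, with a 95% interval from -1.08 to 0.44, and the exact permutation test over the genotypes gave p = 0.0762. This gene has a single probe set, so no second reading was at hand.

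The rise of Cdkn1c in Ptprd+/- against Ptprd+/+ cells lost its call without Ptprd-/- replicate 1 (adjusted p = 0.0522), Ptprd+/- replicate 1 (0.159) or 2 (0.0993), Ptprd+/+ replicate 1 (0.112) or 2 (0.197), without moderation (0.149) and without both mixed arrays (0.206). For the fall in Ptprd-/- against Ptprd+/- cells the call ended only, among the left-out arrays, without Ptprd+/- replicate 1 (0.134) or 2 (0.0625), and further without moderation (0.123) and without both mixed arrays (0.217).

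Cdkn1b, the third Cip/Kip gene, encodes p27, whose protein amount is known to be set largely by degradation. Log2 levels were 9.86, 9.95 and 9.66 in Ptprd-/- cells, 9.63 and 9.85 in Ptprd+/- cells and 9.94 and 9.88 in Ptprd+/+ cells. All 7 values lay close together and Ptprd-/- arrays spanned most of the range. The log2 difference was -0.17 in Ptprd+/- minus Ptprd+/+ cells (95% interval -0.49 to 0.15, adjusted p = 0.451) and 0.08 in Ptprd-/- minus Ptprd+/- cells (-0.21 to 0.37, adjusted p = 0.712). Neither passed the threshold, and the intervals leave room for small differences. A dimmer second probe set gave -0.15 in Ptprd+/- minus Ptprd+/+ cells and, with the opposite sign, -0.11 in Ptprd-/- minus Ptprd+/- cells. It passed in neither (adjusted p = 0.704 and 0.772 in the fit of every probe set). On the same arrays the log2 value of Cdkn1a minus that of Cdkn1b was -2.15, -0.88 and -2.07 in Ptprd-/- cells, 0.71 and 0.73 in Ptprd+/- cells and -1.48 and -2.08 in Ptprd+/+ cells, which shows unequal change of these genes and not which of them stayed constant.

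**Figure D2:**
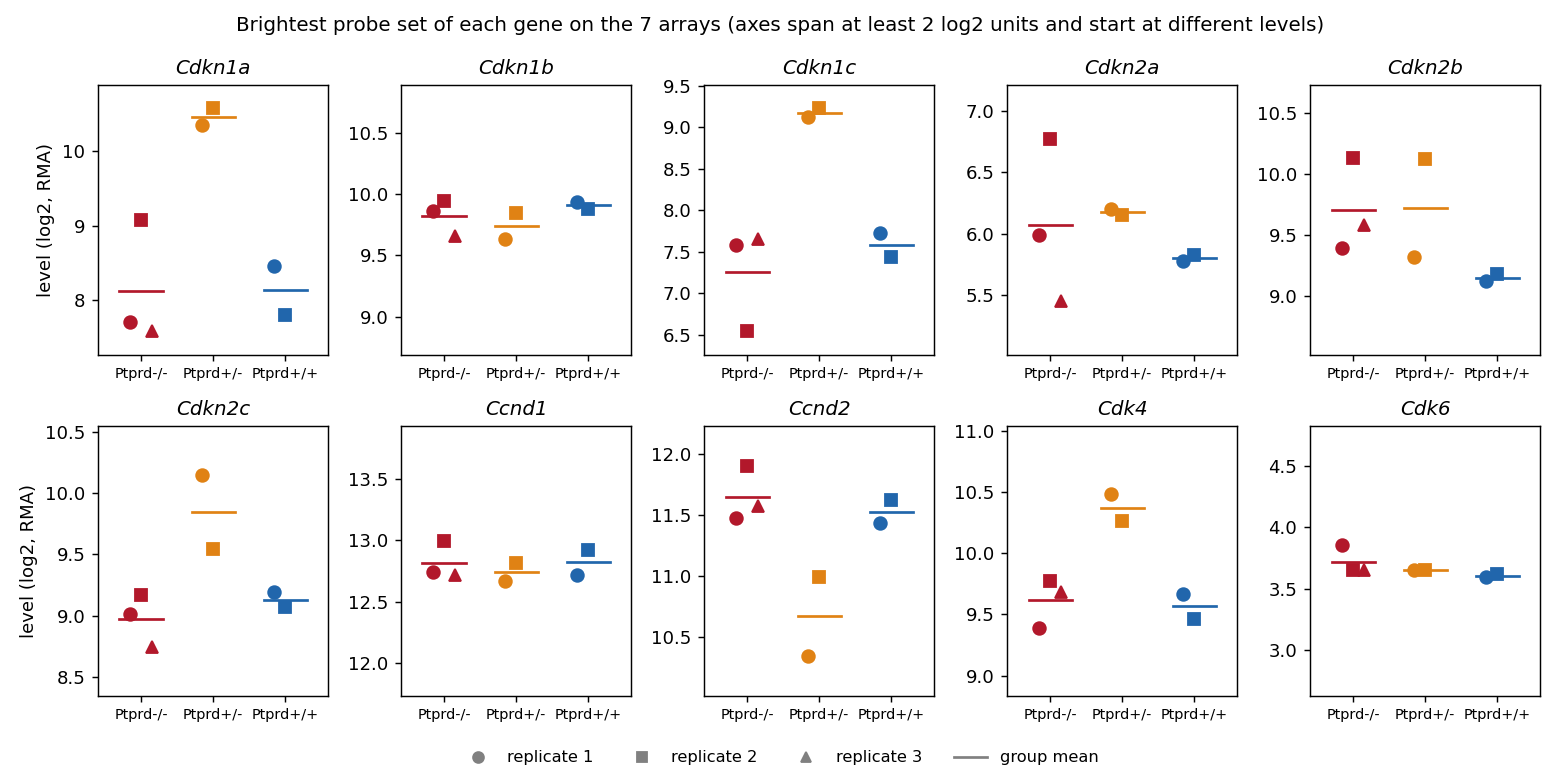
Level (log2, RMA, y axis) of the brightest probe set of each of the 10 genes in Ptprd-/- (n = 3), Ptprd+/- (n = 2) and Ptprd+/+ (n = 2) cells, with a symbol for each array and a line at the group mean; y axes start at different levels. Ptprd+/- arrays lie above all others for Cdkn1a, Cdkn1c, Cdkn2c and Cdk4 and below all others for Ccnd2, while Cdkn1b and Ccnd1 stay within a narrow range.

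Of the Ink4 genes, Cdkn2c, which encodes p18 and acts as a tumour suppressor in mouse brain tumours, fell in Ptprd-/- against Ptprd+/- cells. Its level (log2) was 9.01, 9.17 and 8.74 in Ptprd-/- cells, 10.15 and 9.54 in Ptprd+/- cells and 9.19 and 9.07 in Ptprd+/+ cells. Both Ptprd+/- arrays were above all others, replicate 1 farther than replicate 2. The log2 difference was -0.87 ± 0.20 (SE, adjusted p = 0.0455) in Ptprd-/- minus Ptprd+/- cells and 0.72 ± 0.22 (adjusted p = 0.0846) in Ptprd+/- minus Ptprd+/+ cells. The exact permutation test over the genotypes gave p = 0.0381, not adjusted for the 9 genes so tested. Without Ptprd+/- replicate 1 the log2 difference in Ptprd-/- minus Ptprd+/- cells shrank to -0.57 and the call ended. Without replicate 2 the log2 difference was -1.18. Leaving out a Ptprd+/+ array repeated the fit of these groups alone. The call lay at the edge of the threshold: it ended without Ptprd-/- replicate 1 (adjusted p = 0.0984), 2 (0.0514) or 3 (0.116). It also ended with no filter on dim genes (0.0552), in the fit of every probe set (0.0503), with array weights (0.0554), with the 3' minus 5' covariate (0.0598), without moderation (0.160), in a fit of these groups alone (0.0803) and without both mixed arrays (0.332). Without Ptprd+/- replicate 2 the rise in Ptprd+/- against Ptprd+/+ cells passed (log2 difference 1.02, adjusted p = 0.0413).

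Cdkn2c lies on the minus strand of chromosome 4 and has 2 annotated starts, of which the more upstream one is shown, chr4:109666757-109667006, with GC boxes in capitals.
Cdkn2c start 1: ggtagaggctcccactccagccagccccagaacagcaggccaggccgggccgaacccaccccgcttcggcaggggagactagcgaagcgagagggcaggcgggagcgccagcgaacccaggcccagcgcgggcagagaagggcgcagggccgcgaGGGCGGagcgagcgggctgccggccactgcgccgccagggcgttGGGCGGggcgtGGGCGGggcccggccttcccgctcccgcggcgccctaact
The 3 GC boxes began 95, 51 and 40 bases before the start. The window before start 2 held none of the motifs searched. Base composition differed between them, with 77.2% G and C before start 1 and 42.8% before start 2.

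Cdkn2b, which encodes p15 and is the neighbour of Cdkn2a, was the only tested gene of the set whose Ptprd-/- and Ptprd+/+ arrays did not overlap. It read 9.39, 10.13 and 9.58 (log2) in Ptprd-/- cells, 9.32 and 10.12 in Ptprd+/- cells and 9.12 and 9.18 in Ptprd+/+ cells. All 5 deficient arrays lay above both Ptprd+/+ arrays, and in each deficient group replicate 2 was the highest. The log2 difference against Ptprd+/+ was 0.55 in Ptprd-/- cells (95% interval -0.11 to 1.21, unadjusted p = 0.0914, adjusted p = 0.882) and 0.57 in Ptprd+/- cells (-0.16 to 1.29, adjusted p = 0.262), so neither passed. Between Ptprd-/- and Ptprd+/- cells it was -0.02 (-0.68 to 0.64), and the exact permutation test over the genotypes gave p = 0.276.

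Cdkn2a makes p16 and, from another first exon, the p53 activator p19Arf. Its single probe set read 5.99, 6.77 and 5.45 (log2) in Ptprd-/- cells, 6.21 and 6.15 in Ptprd+/- cells and 5.78 and 5.83 in Ptprd+/+ cells. All lay above the array's 30th percentile, which was 4.82 to 4.95, and all but that of Ptprd-/- replicate 2 lay below the array's median. The Ptprd-/- arrays spanned the whole range, and no comparison passed (log2 difference 0.38 in Ptprd+/- minus Ptprd+/+ cells, adjusted p = 0.529, and -0.11 in Ptprd-/- minus Ptprd+/- cells, adjusted p = 0.871). All mice lacked p16, and whether that probe set reads the part that was removed is not given in the sources used here.

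Ccnd2, the D cyclin known from neural progenitors and the cerebellum, was the one gene of the set that rose in Ptprd-/- against Ptprd+/- cells. Its level (log2) was 11.47, 11.90 and 11.57 in Ptprd-/- cells, 10.35 and 10.99 in Ptprd+/- cells and 11.43 and 11.62 in Ptprd+/+ cells. Both Ptprd+/- arrays lay below all others, replicate 1 farther than replicate 2, and Ptprd-/- and Ptprd+/+ arrays overlapped. Ccnd2 was 1.96-fold higher in Ptprd-/- than in Ptprd+/- cells (log2 difference 0.97 ± 0.21, SE, adjusted p = 0.0394). In Ptprd+/- minus Ptprd+/+ cells the log2 difference was -0.85 ± 0.23 and did not pass (adjusted p = 0.0618). The exact permutation test over the genotypes gave p = 0.0667.

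Ccnd2 has 7 probe sets, more than any other gene of the set. In Ptprd+/- minus Ptprd+/+ cells all 7 were below 0, from -0.93 to -0.61 (log2 difference), and 1 of them passed on its own (adjusted p = 0.0482). In Ptprd-/- minus Ptprd+/- cells all 7 were above 0, from 0.44 to 1.11. The dimmest of them departed from the others, with 6.61 and 8.17 (log2) in the Ptprd+/+ arrays, and its groups overlapped. The probe sets share the RNA of the same arrays and are not replicates.

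Without Ptprd+/- replicate 1 the log2 difference of Ccnd2 in Ptprd-/- minus Ptprd+/- cells was 0.65, without replicate 2 1.29 and without both mixed arrays 0.74. The call of Ccnd2 in this comparison ended without Ptprd+/- replicate 1 and without both mixed arrays. It also ended without Ptprd-/- replicate 1 (adjusted p = 0.0722), 2 (0.0674) or 3 (0.0982). Without moderation (0.151) the call ended too, as it did in a fit of these groups alone (0.0695), which leaving out a Ptprd+/+ array repeated. The mean of its probe sets (0.0504), array weights (0.0504) and the 3' minus 5' covariate (0.0652) ended it as well. In Ptprd+/- against Ptprd+/+ cells the fall passed without Ptprd+/- replicate 2 (log2 difference -1.18, adjusted p = 0.0351), with array weights (0.0441) and with robust moderation (0.0471).

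Ccnd1, the D cyclin most directly raised by growth factor signals, did not follow Ccnd2. The brightest probe set read 12.75, 12.99 and 12.72 (log2) in Ptprd-/- cells, 12.67 and 12.81 in Ptprd+/- cells and 12.72 and 12.92 in Ptprd+/+ cells. The 3 groups overlapped. The log2 difference was -0.08 in Ptprd+/- minus Ptprd+/+ cells (95% interval -0.41 to 0.25, adjusted p = 0.755) and 0.08 in Ptprd-/- minus Ptprd+/- cells (-0.22 to 0.38, adjusted p = 0.735), and its other probe sets differed by no more than 0.09 in either. Within each array the log2 value of Ccnd2 minus that of Ccnd1 was -1.28, -1.10 and -1.15 in Ptprd-/- cells, -2.32 and -1.82 in Ptprd+/- cells and -1.29 and -1.30 in Ptprd+/+ cells. The D cyclins therefore changed unequally in Ptprd+/- cells, a description that carries no test of its own.

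**Figure D3:**
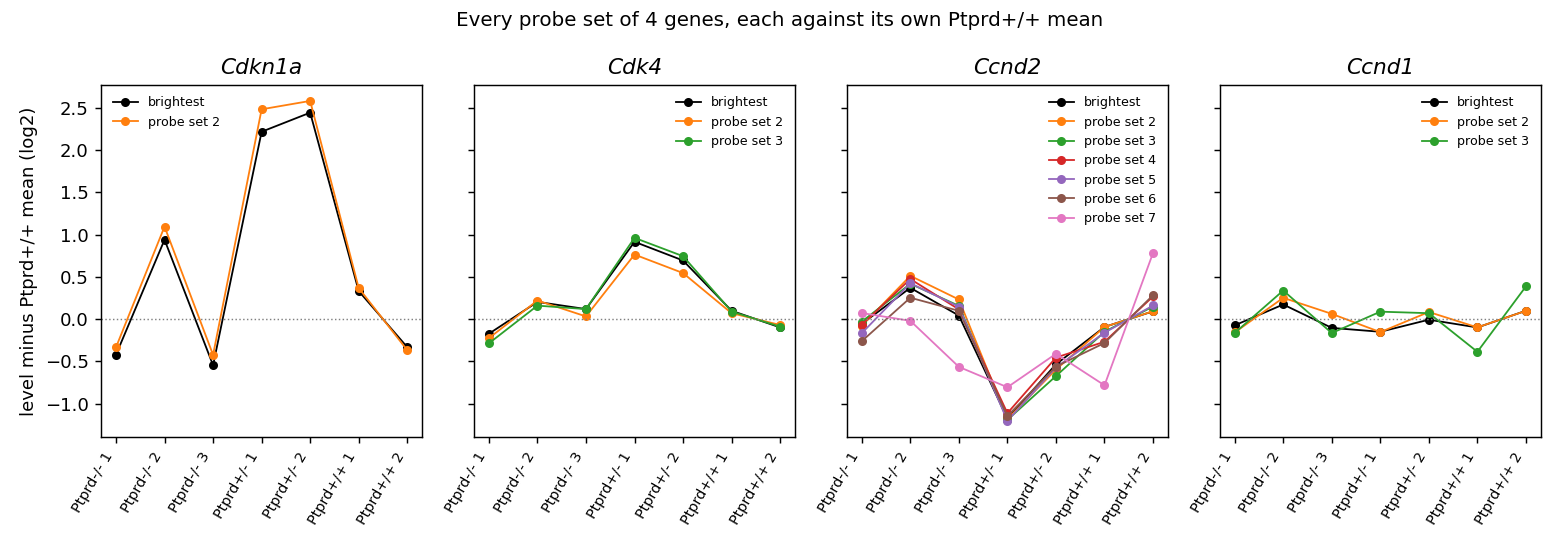
Level minus the Ptprd+/+ mean of the same probe set (log2, y axis) on each of the 7 arrays (x axis) for every probe set of Cdkn1a, Cdk4, Ccnd2 and Ccnd1, with a line for each probe set and the brightest in black. Probe sets of Cdkn1a and Cdk4 peak in the Ptprd+/- arrays, those of Ccnd2 dip there except that the dimmest varies within Ptprd+/+, and those of Ccnd1 stay near 0.

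Cdk4, the kinase of the D cyclins and the target of Ink4 inhibitors, rose with Cdkn1a and Cdkn1c. Its level (log2) was 9.39, 9.77 and 9.68 in Ptprd-/- cells, 10.48 and 10.26 in Ptprd+/- cells and 9.66 and 9.47 in Ptprd+/+ cells. Both Ptprd+/- arrays were above all others, and Ptprd-/- and Ptprd+/+ arrays overlapped. Cdk4 was 1.75-fold higher in Ptprd+/- than in Ptprd+/+ cells (log2 difference 0.80 ± 0.16, SE, adjusted p = 0.0288) and 1.69-fold lower in Ptprd-/- than in Ptprd+/- cells (-0.75 ± 0.15, adjusted p = 0.0303). Its 3 probe sets gave log2 differences from 0.65 to 0.85 in the first comparison and from -0.86 to -0.65 in the second. The exact permutation test over the genotypes gave p = 0.0667. Between Ptprd-/- and Ptprd+/+ cells the log2 difference was 0.05, with a 95% interval from -0.30 to 0.40.

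The rise of Cdk4 in Ptprd+/- against Ptprd+/+ cells lost its call without Ptprd+/- replicate 1 (adjusted p = 0.151), without Ptprd+/+ replicate 1 (0.0863) or 2 (0.173), in a fit of these groups alone (0.0598), with the 3' minus 5' covariate (0.0521), without moderation (0.105) and without both mixed arrays (0.133). Its fall in Ptprd-/- against Ptprd+/- cells was no longer called without Ptprd-/- replicate 1 (0.0598) or 3 (0.0814), without Ptprd+/- replicate 1 (0.191) or 2 (0.0510), without either Ptprd+/+ array or in a fit of these groups alone (0.0561 each), without moderation (0.121) and without both mixed arrays (0.237).

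Cdk4 is known as a target of Myc, which binds the E box CACGTG with its partner Max. The 250 bases before its annotated start, on the plus strand at chr10:127063285-127063534, are shown with E boxes and a GC box of the opposite strand in capitals.
Cdk4: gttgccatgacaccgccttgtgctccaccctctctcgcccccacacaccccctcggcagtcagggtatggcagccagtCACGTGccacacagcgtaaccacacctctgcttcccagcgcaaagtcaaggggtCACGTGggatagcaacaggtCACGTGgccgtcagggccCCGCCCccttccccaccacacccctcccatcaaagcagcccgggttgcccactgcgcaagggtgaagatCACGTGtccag
The 4 E boxes began 172, 118, 98 and 11 bases before the start and the GC box 80 bases before it. At least 1 E box stood in 6.02% of the 32851 windows, and 4 or more in 7 windows, 0.0213%. Among the windows of the 10 genes, the one before Cdk6 held an E box as well, 220 bases before its start, and the other 8 held none. Myc itself read 7.76, 7.80 and 7.77 (log2) in Ptprd-/- cells, 9.61 and 9.26 in Ptprd+/- cells and 7.86 and 7.91 in Ptprd+/+ cells. It rose by 1.55 ± 0.13 (log2 difference, SE, adjusted p = 0.00356) in Ptprd+/- against Ptprd+/+ cells, and Mycn, its relative of neural progenitors, fell by 1.29 ± 0.18 (adjusted p = 0.0120). Binding of Myc was not measured here.

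Cdk6, the other kinase of the D cyclins, was below the 30th percentile on all 7 arrays and was not tested. Its single probe set read 3.86, 3.65 and 3.65 (log2) in Ptprd-/- cells, 3.65 and 3.65 in Ptprd+/- cells and 3.60 and 3.62 in Ptprd+/+ cells. At this level the probe set gave no reading of a difference, and it does not show that the transcript was absent.

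By likeness of pattern, the genes with the highest Pearson r over the 7 arrays were C1qb (0.991) and Vim (0.990) for Cdkn1a, Rcc1 (0.996) and Hdgf (0.993) for Cdkn2c, and Tmsb10 (0.995) and Ebna1bp2 (0.995) for Cdk4. For Cdkn1c they were Nrd1 (0.983) and Igbp1 (0.978), and for Ccnd2 Slc25a38 (0.994) and Alcam (0.991). C1qb, a complement subunit made by microglia, rose by 1.33 (log2 difference, adjusted p = 0.0489) in Ptprd+/- against Ptprd+/+ cells, and Vim, an intermediate filament, by 2.14 (adjusted p = 0.0413). Both were picked by likeness to Cdkn1a on the same arrays, so their rise is not independent of its rise. For the genes that passed in no comparison, the most like were Preb (0.992) and Dusp11 (0.980) for Cdkn1b, G3bp2 (0.925) and Ptk7 (0.923) for Ccnd1, Gprc5d (0.951) and Slc25a48 (0.912) for Cdkn2a and Arfgap3 (0.981) and Pmp22 (0.937) for Cdkn2b. The r values rank genes over 7 points, of which the Ptprd+/- arrays stand apart for many genes, and they carry no p.

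Around these genes, 140 others of the pathway were tested, in lists of partners, targets and regulators. In Ptprd+/- against Ptprd+/+ cells 11 of the 140 rose and 2 fell, and in Ptprd-/- against Ptprd+/- cells 3 rose and 25 fell, while limma called 0 in Ptprd-/- against Ptprd+/+ cells, with 2 at an unadjusted p under 0.05. The first is 9.29% of the 140, near the 10.1% called among all 9243 genes, and the second 20%, against 8.96% of all genes. Orc1 and Fas passed the filter only through the Ptprd+/- arrays, and the 138 genes without them gave 10 rises and 2 falls, and 3 rises and 24 falls. These counts rested on single arrays. The first, 13 in both directions, was 8 without Ptprd-/- replicate 1, 3 without Ptprd+/- replicate 1, 6 without Ptprd+/+ replicate 1 and 1 without Ptprd+/+ replicate 2. The second, 28 in both directions, was 8, 43 and 3 without Ptprd-/- replicates 1, 2 and 3, and 16 with no filter on dim genes. For the second, leaving out a Ptprd+/+ array repeated the fit of these groups alone.

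Among 15 partners of the set, Ccne1, the cyclin that activates Cdk2 at the start of S phase, rose by 1.02 (log2 difference, adjusted p = 0.0417) in Ptprd+/- against Ptprd+/+ cells. That is 6.67% of the list, beside 4.2% of all genes that rose and 10.1% called in either direction. At an unadjusted p under 0.05 limma picked 7 of the 15 there, beside 2766 of all 9243 genes. Another 3 fell in Ptprd-/- against Ptprd+/- cells: Ccne2, the other E cyclin (-1.44, adjusted p = 0.0403), Ccna2, the cyclin of S phase and G2 (-1.95, 0.0456), and Cdkn2d, the remaining Ink4 inhibitor (-0.62, 0.0456). These are 20% of the list, beside 8.96% of all genes. Of 10 Rb and E2F genes limma called 0 in Ptprd+/- against Ptprd+/+ cells (3 at an unadjusted p under 0.05), and Tfdp1, the dimer partner of E2F factors, fell by 0.76 (adjusted p = 0.0306) in Ptprd-/- against Ptprd+/- cells. That is 10% of this list. Of 14 genes for the turnover of inhibitors and D cyclins, Cks1b, the subunit with which Skp2 recognises p27, fell by 1.87 in Ptprd-/- against Ptprd+/- cells (adjusted p = 0.0350), 7.14% of the list.

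By their medians, the lists of DNA replication and mitosis differed most from 0 among the 9 lists. Of 17 E2F target and S phase genes other than Orc1, 3 rose in Ptprd+/- against Ptprd+/+ cells, beside 4.2% of all genes: the flap endonuclease Fen1 by 0.91 (log2 difference, adjusted p = 0.0129), the polymerase subunit Pold1 by 0.72 (0.0347) and the licensing inhibitor Gmnn by 1.69 (0.0449). The same 3 genes fell in Ptprd-/- against Ptprd+/- cells, together with the ribonucleotide reductase subunit Rrm2 (-2.52, adjusted p = 0.0281) and the helicase subunit Mcm7 (-0.93, 0.0339). The median log2 difference of the 17 was 0.85 in Ptprd+/- minus Ptprd+/+ cells and -0.94 in Ptprd-/- minus Ptprd+/- cells. Of 19 mitosis genes 1 rose in the first comparison, the spindle checkpoint gene Mad2l1 (1.36, adjusted p = 0.0482). That is 5.26% of the list, beside 4.2% of all genes that rose and 10.1% called in either direction. At an unadjusted p under 0.05 limma picked 14 of the 19 there, beside 2766 of all 9243 genes. In the second comparison 8 fell, 42.1% of the list beside 8.96% of all genes. Among them were the topoisomerase Top2a (-2.12, 0.0392), the kinase Plk1 (-1.87, 0.0434) and the proliferation marker Mki67 (-2.11, 0.0456). The list's medians were 1.36 and -1.87.

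The mean level of the mitosis list (log2) was 6.85, 7.78 and 6.69 in the Ptprd-/- arrays, 9.43 and 8.25 in the Ptprd+/- arrays and 7.85 and 7.21 in the Ptprd+/+ arrays. Arrays differed widely within each genotype. Cdkn1a, an inhibitor of proliferation, and the mitosis list were both highest in the Ptprd+/- arrays, and within each of the other genotypes the array highest for the list, Ptprd-/- replicate 2 and Ptprd+/+ replicate 1, was also the highest for Cdkn1a. Within Ptprd+/- the order was the other way round, with Cdkn1a higher in replicate 2 and the list higher in replicate 1. Ptprd-/- replicate 2 and Ptprd+/+ replicate 1 were also the only arrays with low Xist (5.14 and 5.40, log2) beside high Y-linked genes. The order shared by Cdkn1a and the list in these genotypes cannot be told apart from the sex of the samples.

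**Figure D4:**
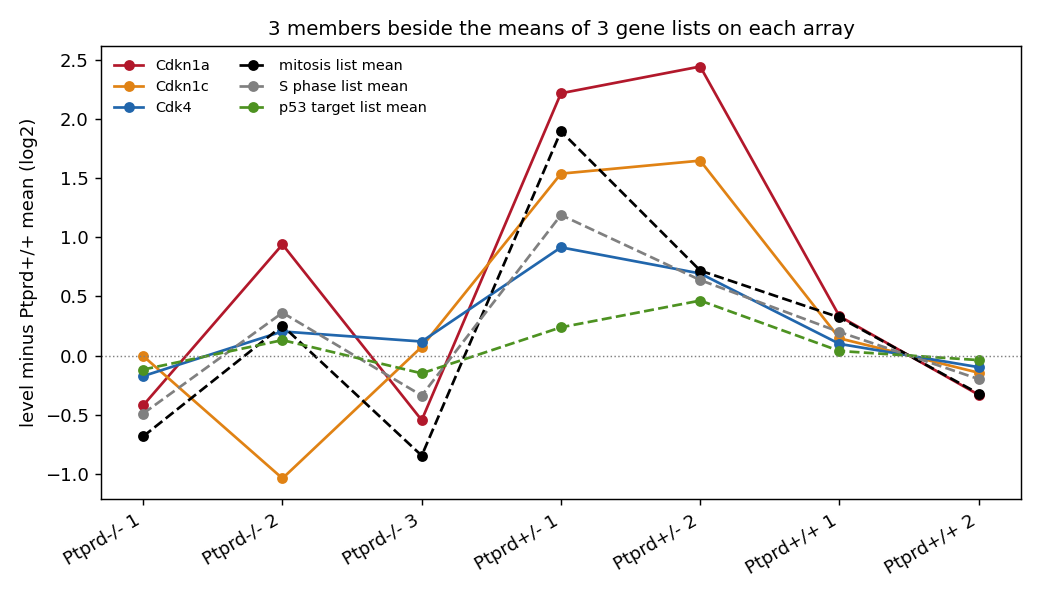
Level minus the Ptprd+/+ mean (log2, y axis) on each of the 7 arrays (x axis) for Cdkn1a, Cdkn1c and Cdk4 (solid lines) and for the means of the mitosis, S phase and p53 target lists, Orc1 and Fas included (dashed lines). All 6 lines are higher in both Ptprd+/- arrays than in any other, and in Ptprd-/- replicate 2 Cdkn1c drops while Cdkn1a and the mitosis and S phase means are up.

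Of 16 other p53 targets that passed the filter without help from the Ptprd+/- arrays, 2 rose in Ptprd+/- against Ptprd+/+ cells, beside 4.2% of all genes. In Ptprd-/- against Ptprd+/- cells 2 of them fell, beside 3.96% of all genes. Ccng1, an atypical cyclin, rose by 0.95 (adjusted p = 0.0365), and Sesn2, a sestrin of the stress response, by 0.79 (0.0395) in Ptprd+/- against Ptprd+/+ cells. The median log2 difference of the 16 was 0.38 in Ptprd+/- minus Ptprd+/+ cells, and Sesn1, another sestrin, gave -0.40 (adjusted p = 0.103). Fas, a death receptor, read 4.12, 4.03 and 3.93 (log2) in Ptprd-/- cells, 5.61 and 5.16 in Ptprd+/- cells and 3.95 and 3.77 in Ptprd+/+ cells. It was above the 30th percentile only in the Ptprd+/- arrays, so no difference or test is given for it.

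Of 22 regulators of CDK inhibitor and D cyclin transcription, Myc and Id1, an inhibitor of bHLH factors, rose in Ptprd+/- against Ptprd+/+ cells, Id1 by 1.53 (log2 difference, adjusted p = 0.0334), and Mycn and Ctnnb1, the beta-catenin gene, fell, Ctnnb1 with a log2 difference of -0.51 (adjusted p = 0.0321). Mycn rose in Ptprd-/- against Ptprd+/- cells by 1.16 (adjusted p = 0.0150) and the Notch target Hes1 by 1.17 (0.0422), and Myc (-1.66, 0.00259), Id1 (-1.43, 0.0350) and the Krüppel-like factor Klf4 (-0.61, 0.0469) fell. Calls made up 18.2% of these regulators in Ptprd+/- against Ptprd+/+ cells and 22.7% in Ptprd-/- against Ptprd+/- cells, beside 10.1% and 8.96% of all genes. Of 12 Polycomb genes and neighbours of the Cdkn2a locus limma called 0 in any comparison. At an unadjusted p under 0.05 it picked 2 in each that involves Ptprd+/- cells and 0 in Ptprd-/- against Ptprd+/+ cells. Ezh2, the methyltransferase that represses this locus, had a log2 difference of 0.70 in Ptprd+/- minus Ptprd+/+ cells (adjusted p = 0.146). Of 13 imprinted neighbours and partners of Cdkn1c, Dlk1, a Notch ligand relative, rose by 1.63 (adjusted p = 0.00962) in Ptprd+/- against Ptprd+/+ cells and fell by 1.39 (0.0127) in Ptprd-/- against Ptprd+/- cells, where Mest rose by 0.77 (0.0222). The list's median was near that of all genes, -0.04 in Ptprd+/- minus Ptprd+/+ cells, where 7.69% of the list was called beside 10.1% of all genes.

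**Figure D5:**
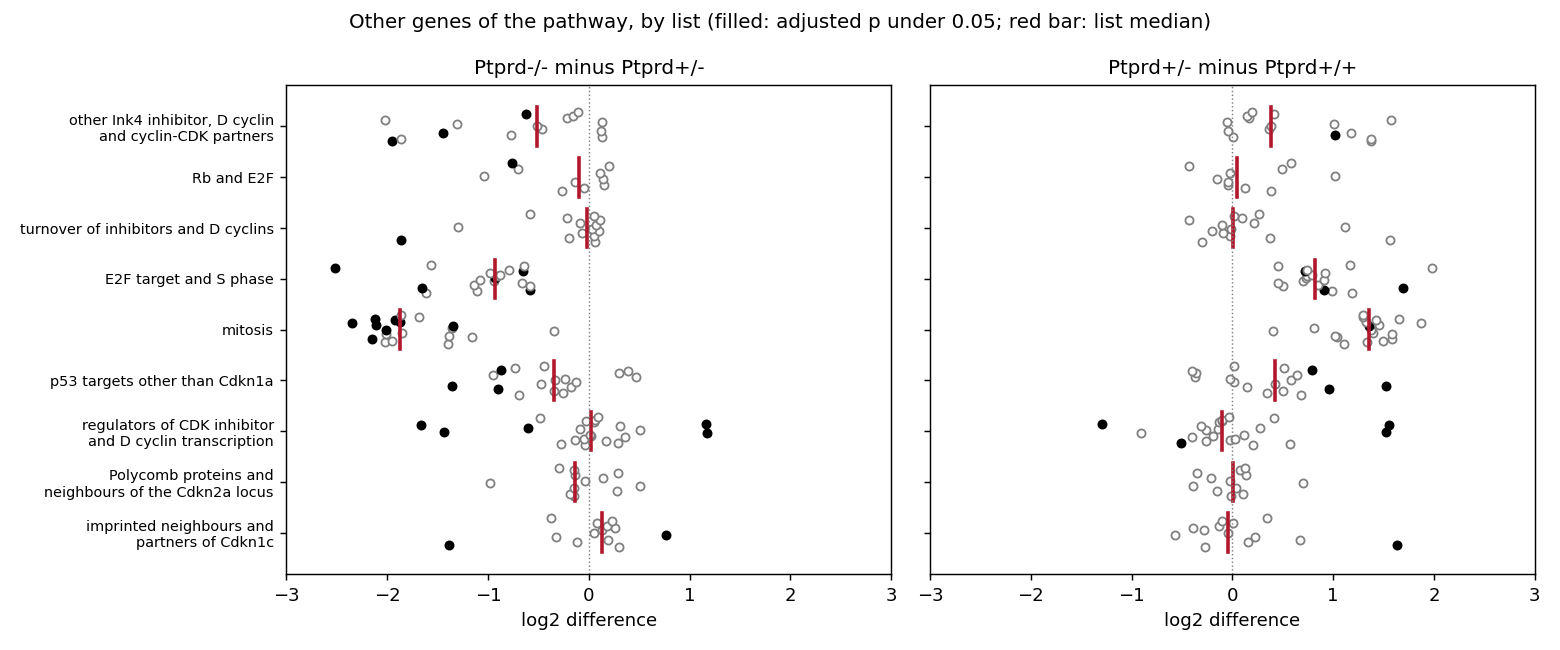
Log2 difference (x axis) of each tested gene of the 9 pathway lists (y axis) in Ptprd-/- minus Ptprd+/- cells and in Ptprd+/- minus Ptprd+/+ cells, filled where the adjusted p was under 0.05, with a red bar at the list median. S phase and mitosis genes lie below 0 in the first and above 0 in the second, with medians of -0.94 and -1.87 against 0.82 and 1.36 over all genes plotted, Orc1 and Fas included.

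Markers of other cells were read beside these genes. In Ptprd+/- against Ptprd+/+ cells the glioma and progenitor genes Olig2 (log2 difference -0.67, adjusted p = 0.0251), Pdgfra (-0.65, 0.0368) and Ptprz1 (-0.61, 0.0334) fell and Nes rose (0.89, 0.0418). Of 7 astrocyte markers 2 rose, Gfap by 1.49 (adjusted p = 0.00864), and 1 fell, leaving out Aldh1l1, which passed the filter only through the Ptprd+/- arrays, and of 5 tested neuron markers 2 fell. Among all genes 4.2% rose and 5.95% fell. Limma called 0 of the T, B and NK cell, granulocyte, endothelium and myelin markers in this comparison, where 1 T, B and NK cell gene and 1 myelin gene had an unadjusted p under 0.05. The part of any of these shifts in the values of the CDK inhibitors, Ccnd2 and Cdk4 was not tested.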

How the data were processed

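Total RNA (75 ng) of sorted tumour cells was labelled with a 3' IVT kit, which reads mainly the ends of transcripts, and hybridised to Affymetrix arrays, per the labels' protocols. The deposited values are log2 levels per probe set, made with RMA and Partek 6.6 per the submitters' processing notes. RMA gives all arrays a common distribution, which hides a shift of all genes. No scanner files were used.

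Of 22626 probe sets other than controls, 20380 named 1 gene. The brightest probe set stood for each gene, and genes were tested where it exceeded the array's 30th percentile on 2 or more arrays. A mean per genotype was fitted with limma 3.58.1 in R 4.3.3 to all 7 arrays (4 residual degrees of freedom), with two-sided moderated tests and Benjamini-Hochberg adjustment over all 9243 genes tested, threshold 0.05. The fit was tested on simulated data. Single genes were also given an exact two-sided permutation test of the F statistic.

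The genes, the lists and the alternatives were chosen with earlier results of these data known. Named beside the set are Ptprd, from each pathway list up to 4 genes of smallest p in Ptprd+/- against Ptprd+/+ and the list's genes past the threshold (at most 8), and the 2 genes most like each member. Marker genes are named as examples, chosen after their values were seen. The number of arrays limits the precision. No arrays held identical values. Promoter sequences are from RefSeq.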

Additional observations from a re-analysis of the deposited data

How the results depend on the processing

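In all, 21 other settings were tried. Over the 9 tested genes and 3 comparisons, 446 values kept their direction and their side of the threshold, 76 lost a call, 4 gained one and 35 changed sign, and no called difference changed sign. Genes called in Ptprd+/- against Ptprd+/+ cells (3) numbered 0 without moderation (4 at an unadjusted p under 0.05), 0 without both mixed arrays (5 unadjusted), 1 with 3' minus 5' signal as a covariate, and 0 to 3 when single arrays were left out. In Ptprd-/- against Ptprd+/- cells (5) they numbered 0 without moderation (5 unadjusted), 0 without both mixed arrays (4 unadjusted), 1 in fits of the 2 groups alone, 3 with the covariate or with array weights, and 0 to 3 when single arrays were left out. In the F test (3) they numbered 1 with no filter or with the covariate, 0 without moderation or without both mixed arrays, and 0 to 2 with single arrays left out. Deviations of same-numbered arrays had correlations from -0.414 to 0.111. In a group of 2 arrays the deviations mirror each other, so these values cannot decide whether the numbers pair the samples. With the replicate block 0 members were called in Ptprd+/- against Ptprd+/+ (6 unadjusted), 0 in Ptprd-/- against Ptprd+/- (5 unadjusted) and 0 in the F test, and over all genes 217 and 25. The block thus ended every call described above, that of Cdkn1a included (adjusted p = 0.0691 and 0.130 in these comparisons). All genes called in Ptprd+/- against Ptprd+/+ (938) numbered 97 without moderation, 172 in the 2 groups alone, 372 with the covariate, 0 without both mixed arrays (1802 unadjusted) and 33 to 802 with single arrays left out, the lowest without Ptprd+/+ replicate 2. In Ptprd-/- against Ptprd+/- (828) they numbered 2 without moderation, 355 in the 2 groups alone, 471 with the covariate, 482 with array weights, 0 without both mixed arrays (1426 unadjusted) and 90 to 732 with single arrays left out, the lowest without Ptprd+/- replicate 1. Pathway genes called numbered 16 with no filter in Ptprd-/- against Ptprd+/-, and with single arrays left out 1 to 17 in Ptprd+/- against Ptprd+/+ and 2 to 43 in Ptprd-/- against Ptprd+/-.

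The sign changes were all in uncalled log2 differences, and their cause was not tested. In Ptprd-/- minus Ptprd+/+ cells Cdkn1a gave 0.0515 with the mean of its probe sets, 0.0315 with centred arrays, 0.0231 with repeated quantile normalization, 0.259 with the replicate block, 0.0849 with the covariate and 0.196 without both mixed arrays. Ccnd1 gave 0.0177 with the mean of its probe sets, 0.0396 with centred arrays, 0.0497 with the block, 0.0347 with the covariate and 0.0346 without both mixed arrays, and Cdk4 gave -0.00315 with shared probe sets left out. In Ptprd-/- minus Ptprd+/- cells Cdkn1b gave -0.0131 with the mean of its probe sets and -0.0464 without both mixed arrays, Cdkn2a gave 0.203 with the block, and Cdkn2b gave 0.0174 with centred arrays and 0.0403 with the block. With single arrays left out, Ptprd-/- minus Ptprd+/+ values ranged from -0.484 to 0.322 for Cdkn1a, -0.521 to 0.0347 for Cdkn1c, -0.0776 to 0.582 for Cdkn2a, -0.100 to 0.0974 for Ccnd1, -0.00665 to 0.211 for Ccnd2 and -0.0490 to 0.161 for Cdk4. Ptprd-/- minus Ptprd+/- values ranged from -0.0253 to 0.188 for Cdkn1b, -0.456 to 0.203 for Cdkn2a, -0.416 to 0.377 for Cdkn2b and -0.0101 to 0.149 for Ccnd1, and Ptprd+/- minus Ptprd+/+ values from -0.178 to 0.0204 for Ccnd1. A left-out array leaves some groups with 1 array, which is then assumed to vary like the others.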
